A study of Mus musculus with 6 samples.

Results

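A set of 9 genes that write, erase or read DNA methylation was followed in immortalized mouse cardiosphere-derived cells before and after induction with 5-azacytidine. The members were chosen by gene name: the methyltransferases Dnmt1, Dnmt3a and Dnmt3b, their cofactors Uhrf1 and Dnmt3l, the dioxygenases Tet1, Tet2 and Tet3, and the methyl-CpG reader Mbd2. They are 9 of the 54532 genes in the deposited table, and all 9 were among the 14246 genes with enough reads to be tested. They were set against 41 genes of DNA replication and 25 genes of mitosis, because some methylation genes are transcribed mainly in dividing cells.

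The cells were grown from the ventricle epicardium of C57BL/6 mice, which were 6 weeks old in the methods of the study. They were kept dividing with human telomerase (hTERT), delivered by lentivirus and selected with puromycin. Both groups were at passage 30, so controls and induced cells share the transgene, the selection and the passage. The 3 control libraries came from cells without the drug. The 3 induced libraries came from cells given 10 µM 5-azacytidine for 3 days, and the labels add 4 weeks in IMDM with 2% FBS. The methods of the study describe another medium and a shorter culture for cardiac induction, and the upkeep of the sequenced controls was not given. Drug, serum and time in culture therefore cannot be told apart. The 6 libraries are labelled as separate samples of 1 immortalized line, so p-values measure the spread between these samples, which may be technical.

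DNA methylation is copied at each S phase, when UHRF1 recognises hemimethylated CpG sites behind the replication fork and recruits DNMT1. DNMT3A and DNMT3B place new methyl groups, DNMT3L stimulates them without being catalytic itself, and the TET enzymes oxidise 5-methylcytosine on the way to its removal. MBD2 binds methylated CpG and brings in the NuRD repressor complex. 5-azacytidine is incorporated into nucleic acids, and in DNA it traps the methyltransferase proteins. Transcript levels were measured here, and neither DNMT protein nor methylation itself was.

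Libraries held 19041133 to 19823369 counted reads, and 3 reads in a library, the limit that a count of 0 allows, correspond to 0.151 to 0.158 CPM (reads scaled to library size). Intervals and limits of this kind cover counting error only. The surface markers of cardiosphere cells, Eng, Thy1 and Ly6a, were expressed in both groups. They summed to 503 to 508 CPM in control and 563 to 595 CPM in induced libraries. By the edgeR test used below, 2 of these 3 were higher and 1 lower in induced cells. Their log2 fold changes ran from -0.57 to 0.54, and 32.6% of all tested genes were higher and 32.2% lower. The 4 leukocyte markers Ptprc, Itgam, Cd52 and Tyrobp had 0 reads in every library. The 4 endothelial markers summed to 0.255 to 0.507 CPM in control and 0.579 to 0.943 CPM in induced libraries, and the 4 cardiomyocyte markers to 0 to 0.153 and 0.531 to 1.10 CPM. The 4 pluripotent or germ cell markers summed to 1.72 to 3.06 CPM in control and 0.319 to 0.631 CPM in induced libraries. Of these, Pou5f1 and Dppa3 had 0 reads throughout, Nanog had 27 reads in control and 3 in induced libraries, and Ddx4 had 106 and 27 reads. The part of these cells in the results below was not tested.

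The methylation genes did not move as a block. In the quasi-likelihood test of edgeR, with p-values adjusted over all tested genes, 6 of 9 were past an adjusted p of 0.05, against 64.8% of all tested genes. In induced cells 3 were lower (Uhrf1, Dnmt1 and Tet1) and 3 were higher (Dnmt3a, Mbd2 and Tet3), where 32.2% of all genes were lower and 32.6% higher. The 3 control and 3 induced CPM values did not overlap for 6 members, 4 lower and 2 higher, beside 68.6% of all tested genes. These shares are near those of the whole transcriptome, so the counts alone do not set the members apart. The median log2 fold change was -0.26 over the 9 members and -0.01 over all tested genes.

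**Figure D1:**
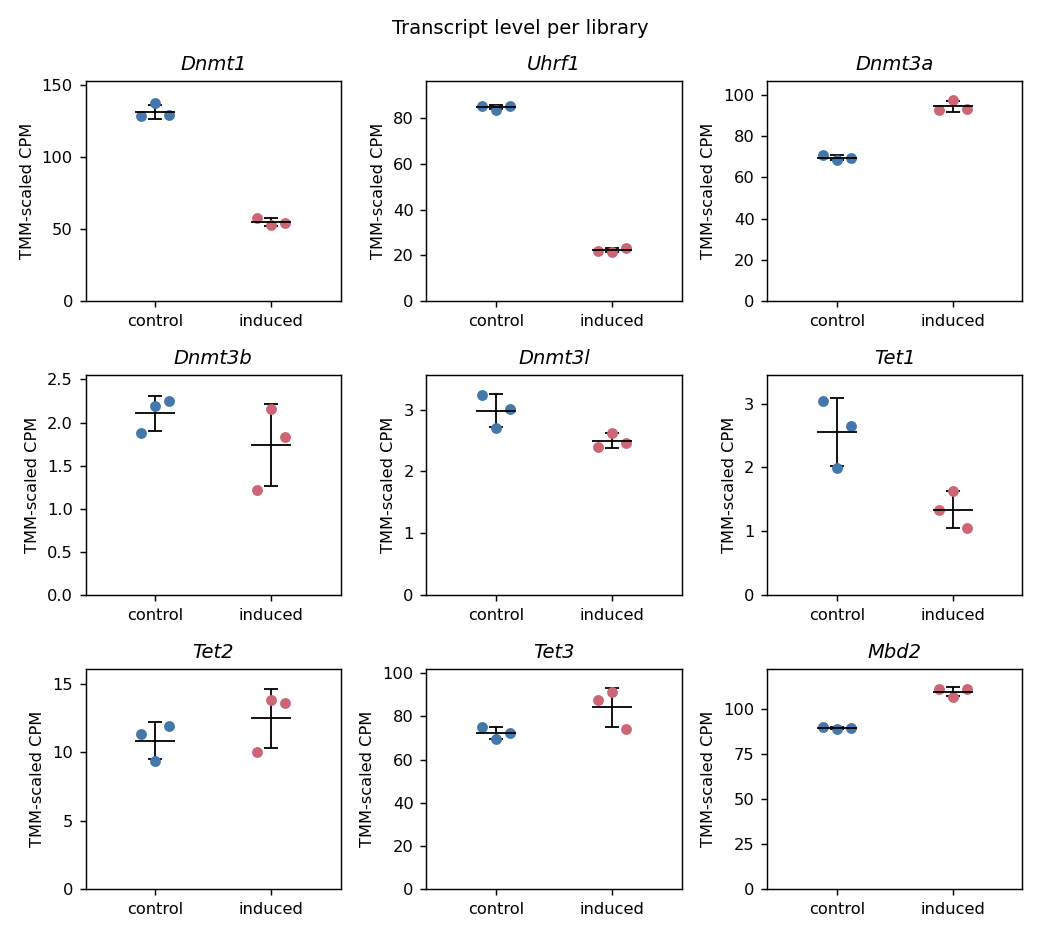
Transcript level of each member in each library, in TMM-scaled CPM with axes from 0. Points are libraries, and the bar and whiskers are the mean and SD of 3 libraries. The induced libraries of Uhrf1 (21.7 to 23.5 CPM) and Dnmt1 (53.2 to 57.8 CPM) sit far under their controls, while those of Dnmt3a and Mbd2 sit above theirs.

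The maintenance pair showed the largest falls among the members. Dnmt1 (ENSMUSG00000004099, chromosome 9, 20907209 to 20959888, minus strand, mm10) had 128.5, 137.2 and 128.9 CPM in the control libraries and 57.8, 53.2 and 54.0 CPM in the induced libraries. Every induced library lay below every control library. The level fell to 41.8% of control (log2 fold change -1.26, SE 0.06, edgeR adjusted p 6.34e-13), and 798 of 14246 tested genes had a lower fold change.

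Uhrf1 (ENSMUSG00000001228, chromosome 17, 56303321 to 56323486, plus strand) had 85.3, 83.6 and 85.4 CPM in control libraries and 22.1, 21.7 and 23.5 CPM in induced libraries. The groups were again fully apart, with an SD of 1.01 CPM in control and 0.953 CPM in induced libraries. Uhrf1 was at 26.4% of control (log2 fold change -1.92, SE 0.06, edgeR adjusted p 2.42e-15), and 319 tested genes had a lower fold change. Neither Dnmt1 nor Uhrf1 shares exon bases with another annotated gene. In these bulk libraries, fewer cells that express a gene and less RNA of it per cell cannot be told apart.

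The start regions of both genes are shown because they carry a word that is more frequent among replication genes than among all genes. RefSeq promoter windows (GRCm38.p6, 250 bases before to 50 after a start) were found for 8 of 9 members, and both strands were searched for the E2F words TTTGGCGC, TTTGCCGC, TTTCGCGC and TTTCCCGC and the CHR words TTTGAA and TTCGAA. E2F factors act on genes of the G1/S transition, and the CHR element is known from genes of G2 and mitosis. In the lines that follow, read 5′ to 3′ on the strand of the gene, capitals mark the word as it appears on that strand.
Dnmt1, chr9:20952824-20952853, minus strand: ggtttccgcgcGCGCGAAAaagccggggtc
Dnmt1, chr9:20952574-20952601, minus strand: gcggggcagcgTTTGGCGCgggctgtgc
Uhrf1, chr17:56304117-56304146, plus strand: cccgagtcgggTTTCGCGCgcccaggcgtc
Mcm5, chr8:75109345-75109374, plus strand: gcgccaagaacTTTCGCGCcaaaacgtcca
Mki67, chr7:135716479-135716506, minus strand: tagcgccagaaTTTGAAccgccgttttg

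The first Dnmt1 word begins 219 bases before the RefSeq start at 20952623 and the second 33 bases after it, both within annotated exon sequence. Of the bases before that start, 166 are annotated exon of Dnmt1, and other RefSeq starts of the gene lie further upstream. The Uhrf1 word begins 185 bases before a start of that gene and lies outside annotated exons. An E2F word was present for 2 of the 8 members with a window, Dnmt1 and Uhrf1, and for 13 of 34 replication genes (38.2%), 1 of 20 mitosis genes (5.0%) and 2.60% of 27025 genes with a window. A CHR word was present for 16 of 20 mitosis genes (80.0%), 7 of 34 replication genes (20.6%) and 21.7% of all genes. Among the members it was found in 1 upstream window of Dnmt1 and in that of Dnmt3b, and in no window of Uhrf1. Mcm5 and Mki67 were printed as examples with a word, while the windows of Pcna, Rrm2 and Ccnb1 held neither kind of word. The windows of Dnmt1 and Uhrf1 with an E2F word hold 33 CpG each, where 91.4% of all windows hold fewer and the median is 7. A gene was counted if any of its windows held a word. The shares were not matched for CpG content or for the number of windows per gene. A match describes these letters and does not show that a factor binds there.

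The fall of Dnmt1 and Uhrf1 was then set against the fall of proliferation genes. Of 41 replication genes, all tested, 40 were lower, 0 were higher and Fen1 did not pass the test (log2 fold change -0.10, with 84.2% of its exon bases shared with other genes). Gins2 and Chaf1a share 67.3% and 52.5% of theirs, and some other replication genes share smaller parts. These counts are uncertain too, and all of them stayed in the median and sum of the list. The median log2 fold change of the list was -1.11 with a range of -1.88 to -0.10, and its summed level went from 1935 ± 10.9 to 1028 ± 9.64 CPM (SD, n = 3). All 25 mitosis genes were lower, with a median of -2.01 and a range of -2.39 to -1.46, and their sum went from 1504 ± 42.5 to 384 ± 12.5 CPM (SD, n = 3). In percent of the control level, 53.2% of the replication sum and 25.5% of the mitosis sum were left. The median over all tested genes was -0.01.

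Single genes of these lists give the scale. Among replication genes, the helicase subunit Mcm5 had a log2 fold change of -1.79 and the Okazaki fragment ligase Lig1 of -1.23. Smaller falls were those of the ribonucleotide reductase subunit Rrm2 at -0.64 and of the sliding clamp Pcna at -0.56. Of the mitosis genes, the proliferation marker Mki67 was at -2.01, the topoisomerase Top2a at -1.82 and the cyclin Ccnb1 at -2.04. Each of these 7 genes was past an edgeR adjusted p of 0.05 with groups apart. Lig1 and Top2a share 5.79% and 1.35% of their exon bases with other genes.

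Dnmt1, at -1.26, lay inside the replication list: 15 of its 41 genes fell further and 26 fell less, while all 25 mitosis genes fell further. The point estimate of Uhrf1, at -1.92 (SE 0.06), lay beyond those of all 41 replication genes. It lay among those of the mitosis genes, 16 of which fell further. The nearest replication gene was Orc1, at -1.88 (SE 0.21, with 10.8% of its exon bases shared), so the order of Uhrf1 and Orc1 is uncertain. Tet1, at -0.94, had 25 of 41 replication genes below it. The point estimates of Dnmt3b and Dnmt3l lay above those of 39 replication genes, and Dnmt3a, Tet2, Tet3 and Mbd2 lay above every gene of both lists.

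**Figure D2:**
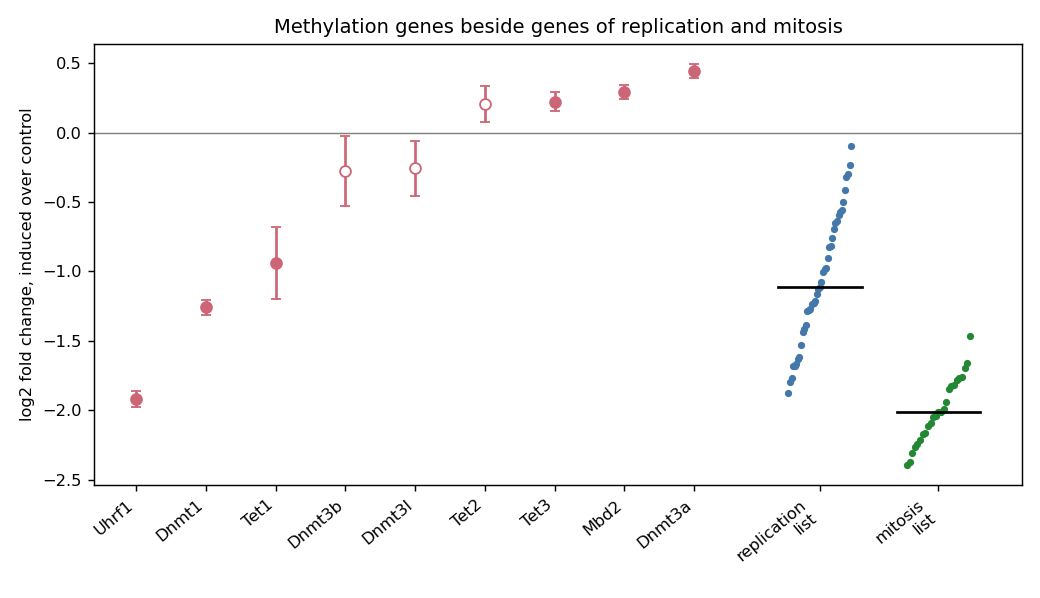
Log2 fold change of induced over control cells for the 9 members, ordered by value, with whiskers of 1 SE; filled points passed an edgeR adjusted p of 0.05. Small points are single genes of the replication and mitosis lists with a line at each median (-1.11 and -2.01). The point estimate of Uhrf1, at -1.92, lies below that of every replication gene, with Orc1 close above it at -1.88.

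To ask whether a member fell further than the summed level of replication genes, libraries were scaled to the summed counts of the list. The same edgeR test was run on all genes, with this sum as a fixed scale. Its p-values therefore do not measure the spread among the genes of the list. On that scale 5.36% of tested genes were lower and 83.2% higher, and 2 of 9 members, Dnmt1 and Uhrf1, were among the lower ones and 6 among the higher ones. Uhrf1 was lower than the replication sum by a log2 difference of -1.01 (SE 0.06, edgeR adjusted p 1.58e-12). For Dnmt1 the difference was -0.35 (SE 0.06, edgeR adjusted p 1.02e-05).

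The size of that difference depends on the yardstick. With the median ratio over the list, the log2 difference was -0.18 for Dnmt1 (edgeR adjusted p 0.0105) and -0.84 for Uhrf1, and against Pcna alone it was -0.70 and -1.36. Against the mitosis sum the sign turned: Dnmt1 was higher by 0.71 (edgeR adjusted p 7.18e-10), and Uhrf1 differed by 0.050 (edgeR adjusted p 0.501). As log2 of CPM over the geometric mean level of the replication list, Dnmt1 had 1.99, 2.10 and 2.00 in control libraries and 1.91, 1.81 and 1.78 in induced libraries. Uhrf1 had 1.40, 1.38 and 1.41 against 0.52, 0.51 and 0.58 on the same scale. The groups were apart for both genes, and the exact two-sided permutation test gave p = 0.1, the smallest value that 3 libraries against 3 allow.

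For the other members a difference was not detected or had the opposite sign. Tet1 stayed close to the list sum (log2 difference -0.03, SE 0.26, edgeR adjusted p 0.923). Against the geometric mean level of the list its difference was 0.12, with overlapping groups and an exact permutation p of 0.7. Dnmt3b (0.63, edgeR adjusted p 0.0267) and Dnmt3l (0.65, edgeR adjusted p 0.00516) were higher than the replication sum. Both calls were lost against Pcna, and that of Dnmt3b was also lost without control 1 (0.55), induced 2 (0.44) or induced 3 (0.60). Dnmt3a, Mbd2, Tet3 and Tet2 were higher by 1.35, 1.20, 1.13 and 1.11.

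Of the de novo enzymes, Dnmt3a rose and Dnmt3b and Dnmt3l did not pass the test. Dnmt3a (ENSMUSG00000020661, chromosome 12, 3806007 to 3914443, plus strand) had 70.7, 68.3 and 69.5 CPM in control libraries and 92.6, 97.4 and 93.2 CPM in induced libraries. All induced libraries were above all controls. The log2 fold change was 0.44 (SE 0.05, edgeR adjusted p 5.56e-07), and 3054 of the tested genes rose more. Of its exon bases 0.799% are shared with another gene.

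Dnmt3b (ENSMUSG00000027478, chromosome 2, 153649450 to 153687730, plus strand) had few reads, 125 over the controls and 99 over the induced libraries. Its levels were 1.87, 2.19 and 2.25 CPM in control and 1.22, 2.16 and 1.83 CPM in induced libraries, and the groups overlapped. The log2 fold change of -0.28 had an SE of 0.25 (edgeR adjusted p 0.354), so a change was not detectable at this depth. The value was -0.08 without induced library 1 and -0.45 without induced library 2, and neither passed the test. Dnmt3l (ENSMUSG00000000730, chromosome 10, 78041947 to 78063622, plus strand), best known from germ cells, had 3.24, 2.70 and 3.01 CPM in control and 2.39, 2.63 and 2.46 CPM in induced libraries. These groups were just apart, but the log2 fold change of -0.26 (SE 0.20) did not pass the test (edgeR adjusted p 0.266). The annotation places 2.24% of the exon bases of Dnmt3l on another gene.

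The 3 dioxygenases differed in level and in direction. Tet1 (ENSMUSG00000047146, chromosome 10, 62804570 to 62908996, minus strand), the enzyme best known from pluripotent cells, had 3.04, 1.99 and 2.65 CPM in control and 1.33, 1.63 and 1.05 CPM in induced libraries. The groups were apart by a narrow gap between the second control and the second induced library. With 152 and 76 reads in all, it fell to 52.3% of control (log2 fold change -0.94, SE 0.26, edgeR adjusted p 0.00413). Under limma on log2(FPKM + 1), a scale that shrinks changes of low genes, the difference was -0.10 and did not pass (adjusted p 0.0774).

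Tet2 (ENSMUSG00000040943, chromosome 3, 133463679 to 133545139, minus strand) had 11.3, 9.33 and 11.9 CPM in control and 9.99, 13.8 and 13.6 CPM in induced libraries. The first induced library lay within the control range, and 0.255% of the exon bases are shared with another gene. The log2 fold change was 0.20 (SE 0.13, edgeR adjusted p 0.182), and it was 0.34 without induced library 1 (edgeR adjusted p 0.0228), so that 1 library decides the call.

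Tet3 (ENSMUSG00000034832, chromosome 6, 83362373 to 83459084, minus strand) had 75.2, 69.6 and 72.1 CPM in control and 87.5, 91.4 and 74.0 CPM in induced libraries. The third induced library fell inside the control range, so the groups overlapped although the gene passed the test. The log2 fold change was 0.22 (SE 0.07, edgeR adjusted p 0.00862). Without control library 2 it was 0.19 and no longer passed (edgeR adjusted p 0.0545), nor did it with limma on log2(FPKM + 1) (0.19, adjusted p 0.0592) or log2(FPKM + 0.1) (0.22, adjusted p 0.0577).

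The reader Mbd2 (ENSMUSG00000024513, chromosome 18, 70568189 to 70626131, plus strand) had 89.9, 88.6 and 89.4 CPM in control and 111.1, 106.4 and 110.6 CPM in induced libraries. The groups were clearly apart, since replicates within each group lay close together. The log2 fold change was 0.29 (SE 0.05, edgeR adjusted p 5.07e-05), a small rise next to the 4068 tested genes that rose more.

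Levels between genes were compared per length, in FPKM (reads scaled to gene length and to depth). The length counts all annotated exon bases, 16642 for Dnmt3a and 7377 for Dnmt1. In CPM, without length, Dnmt3a and Dnmt1 had 69.5 and 131.5 in control and 94.4 and 55.0 in induced cells. The order of these genes in induced cells, and their shares below, therefore depend on the length used. In control cells the order was Mbd2 (27.5 ± 0.239), Uhrf1 (19.7 ± 0.273), Dnmt1 (17.7 ± 0.629), Tet3 (4.29 ± 0.172), Dnmt3a (4.14 ± 0.0765), Dnmt3l (0.989 ± 0.0913), Tet2 (0.637 ± 0.0809), Dnmt3b (0.409 ± 0.0395) and Tet1 (0.164 ± 0.0343 FPKM; SD, n = 3). Of these neighbours Tet3 and Dnmt3a overlapped in range and the others did not. In induced cells it was Mbd2 (34.0 ± 0.862), Dnmt1 (7.44 ± 0.343), Dnmt3a (5.66 ± 0.147), Uhrf1 (5.25 ± 0.228), Tet3 (5.04 ± 0.541), Dnmt3l (0.834 ± 0.0396), Tet2 (0.739 ± 0.127), Dnmt3b (0.340 ± 0.0923) and Tet1 (0.0863 ± 0.0187 FPKM; SD, n = 3). There, Uhrf1 and Tet3 overlapped, as did Dnmt3l and Tet2. Uhrf1 thus moved from the place after Mbd2 to one after Dnmt1 and Dnmt3a. In control cells it lay above 81.2% of all tested genes in FPKM and in induced cells above 50.7%, and for Dnmt1 these shares were 79.2% and 59.1%.

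The balance within each enzyme family followed from these levels. Dnmt1 made up 79.0%, 80.4% and 79.1% of the summed FPKM of the catalytic methyltransferases Dnmt1, Dnmt3a and Dnmt3b in control libraries and 57.5%, 53.5% and 55.1% in induced libraries. The groups were apart by a wide gap, and the mean difference was -24.2 points (exact two-sided permutation p = 0.1, the smallest possible with n = 3 per group). Dnmt3a was the main de novo enzyme in both groups. It took 92.0%, 90.5% and 90.4% of the sum of Dnmt3a and Dnmt3b in control and 95.9%, 93.3% and 94.0% in induced libraries (exact permutation p = 0.1), which rests on the few reads of Dnmt3b.

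Tet3 was the main dioxygenase transcript, with 84.3 ± 1.47% of the summed Tet FPKM in control and 85.9 ± 2.54% in induced libraries (SD, n = 3). The groups overlapped (exact permutation p = 0.6), as they did for Tet2 with 12.5 ± 1.10% and 12.7 ± 2.61% (SD, n = 3; exact permutation p = 0.9). Tet1 went from 3.66%, 2.65% and 3.30% in control to 1.45%, 1.65% and 1.28% in induced libraries, with groups apart (exact permutation p = 0.1). Tet1 thus had the smallest share of the family in every library.

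**Figure D3:**
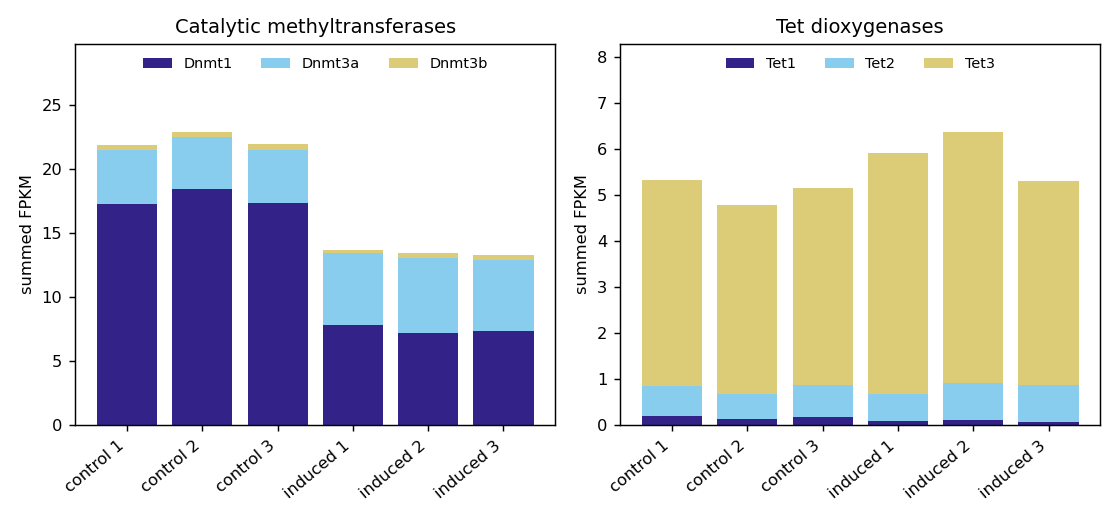
Summed FPKM of the catalytic methyltransferases (left) and of the Tet dioxygenases (right) in each library, stacked by gene with axes from 0. The Dnmt1 segment shrinks in all 3 induced libraries, from 79.0% to 80.4% of the stack down to 53.5% to 57.5%, while Tet3 is the largest Tet segment in all 6.

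Genes whose profile over the 6 libraries was most like that of Dnmt1 and Uhrf1 were ranked by Euclidean distance between centred log2 CPM, among 14046 genes. Nearest to Dnmt1 were Cbx2 (distance 0.0770), Scarb1 (0.0774), Fam43a (0.0788), Ccdc102a (0.0820) and Rpl13a (0.0902), with log2 fold changes of -1.23 to -1.28. Of the exon bases of Rpl13a 35.4% are shared with other genes, so its count is uncertain. Nearest to Uhrf1 were Ahsg (0.0565), Serpina3g (0.0786), Hmga1 (0.0801), Cxcl12 (0.0881) and Stmn1 (0.112), with log2 fold changes of -1.87 to -1.96. Ahsg, Hmga1 and Stmn1 share 2.82%, 5.84% and 3.43% of their exon bases with other genes, and Serpina3g belongs to a gene cluster with near copies, so these counts are uncertain too. None of the 10 is a gene of the replication or mitosis lists. The 6 points form 2 groups, so the measure mainly ranks genes by the size of the difference between groups.

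The other genes of the pathway were described from a list of 59, of which 57 had enough reads. In induced cells 8 were higher and 31 lower, with a median log2 fold change of -0.22, beside a median of -0.01 and shares of 32.6% and 32.2% over all tested genes. Cxxc4, with 12 reads in control and 18 in induced libraries, and Dppa3, with 0 reads, were not tested.

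Genes grouped as partners of maintenance methylation were mostly lower, with a median of -1.16: 7 of 8 fell and 0 rose, beside 32.2% and 32.6% of all tested genes. The falls differed in size, and those of Ehmt1 and Ehmt2 were small, at -0.29 and -0.23. Pclaf, a PCNA-binding factor, had 44.9, 47.6 and 42.2 CPM in control and 7.87, 8.05 and 8.28 CPM in induced libraries (log2 fold change -2.48, SE 0.08, edgeR adjusted p 9.88e-15), and the groups were far apart. Hells, the remodeller that maintenance methylation needs in packed chromatin, had 22.8 ± 0.843 CPM in control and 8.66 ± 1.40 CPM in induced libraries (SD, n = 3), a log2 fold change of -1.39. Cdca7, which recruits HELLS, had 24.5, 26.0 and 25.0 CPM in control and 5.05, 6.00 and 6.03 CPM in induced libraries (-2.14 on the log2 scale). Both were also without overlap. Cdca7l was at -1.40, with 22.4% of its exon bases shared with another gene. Uhrf2, the paralogue of Uhrf1, went from 135.5 ± 1.51 to 70.8 ± 4.83 CPM (SD, n = 3), a log2 fold change of -0.94. Usp7, the deubiquitinase that binds UHRF1 and DNMT1, was at 0.08 and did not pass the test (edgeR adjusted p 0.171).

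The genes grouped as de novo partners were Zfp57, Trim28, Kdm1a, Kdm1b, Nsd1, Setd2 and Smchd1. The role is a label of the list and was not tested in these cells. Of these 7, with a median of -0.27, 5 were lower and 0 higher, beside 32.2% and 32.6% of all tested genes. The largest fall was that of the corepressor Trim28 at -0.60, from 389 ± 8.71 to 256.9 ± 10.5 CPM (SD, n = 3). Of 12 NuRD subunits, the complex that MBD2 joins, 8 were lower and 0 higher with a median of -0.22, and Mta1 was at -0.61. Mbd2 itself rose while these subunits fell or did not pass. Of 9 other readers 2 were lower and 1 higher, and the glycosylase Mbd4 was at -0.91 with 5.0% of its exon bases shared.

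Among 12 tested demethylation partners 5 were lower and 4 higher, beside 32.2% lower and 32.6% higher over all tested genes. These counts alone do not set the role apart. The stress-induced Gadd45g had 31.0, 36.7 and 33.5 CPM in control and 66.6, 56.5 and 71.3 CPM in induced libraries, a rise of 0.94 on the log2 scale (SE 0.08, edgeR adjusted p 6.06e-09). It was the largest rise on the list, with groups apart. Parp1, which acts in base excision repair, was at -0.77. Of 9 genes that supply the methyl donor 4 were lower and 3 higher, and these counts alone do not set them apart either. The folate enzyme Shmt1 was at -1.51 (4.74% of exon bases shared) and Ahcy, which clears S-adenosylhomocysteine, at -0.90.

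**Figure D4:**
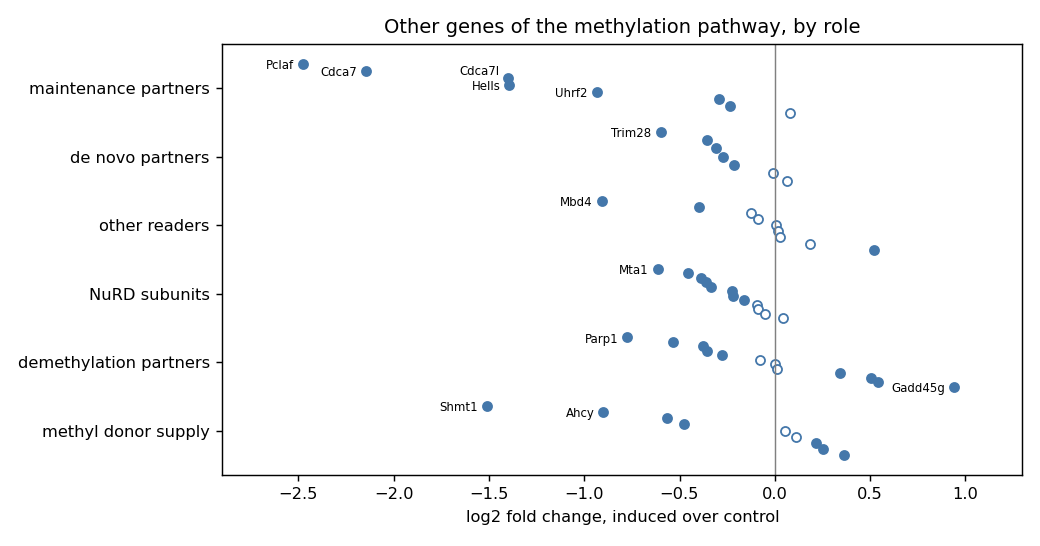
Log2 fold change of induced over control cells for the 57 tested partner genes, 1 point a gene, by role; filled points passed an edgeR adjusted p of 0.05, and named genes also changed at least 1.5-fold. The maintenance partners reach furthest to the left, with Pclaf at -2.48 and Cdca7 at -2.14, and Gadd45g at 0.94 is the furthest to the right.

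Genes known to be held silent by promoter methylation in body cells were read as counts. Of 17 such germline genes, 11 had 0 reads in every control library, and 2 of these had 0 reads in the induced libraries too. Reads were higher in every induced library than in any control for 6 genes, some of them with only 1 to 5 reads a library, and lower in every induced library for 1, while 10 overlapped or tied. Of the 4 genes that reached the limit for testing, Rhox5, Mov10l1 and Ddx4 did so through the group where they were high and Brdt through both, so their calls are not a count over the list. Mov10l1, a piRNA helicase, had 0 reads in the controls and 55 in the induced libraries, at least 19.1-fold higher against 3 reads summed over the controls. The germ cell ADP/ATP carrier Slc25a31 had 0 and 31 reads, at least 10.8-fold higher, and was below the limit for testing. Rhox5, an X-linked homeobox gene, had 1 read in controls and 296 in induced libraries. Brdt, a testis bromodomain gene, had 184 and 115 reads with overlapping groups (log2 fold change -0.62, edgeR adjusted p 0.0384). The gene lower in every induced library was the germ cell helicase Ddx4, with 29, 48 and 29 reads in control and 6, 9 and 12 in induced libraries.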

How the data were processed

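RNA sequencing of 3 control and 3 induced samples was analysed from the table that the authors deposited, which holds raw counts of reads per gene and FPKM values. Per the processing notes of the submitters, reads were handled with HISAT2 2.0.5, featureCounts 1.5.0-p3 and DESeq2 1.16.1 on mm10, while the methods of the study name other versions, platforms and replicate numbers. The strand setting is not given in the sources used here, and the kit does not mark strand, so genes that share exon bases with another gene are uncertain. The deposited FPKM were counts scaled to gene length and to 1 depth per library, 0.980 to 1.03 of the total. Of the genes found in GENCODE M21 (GRCm38), 98.3% have the coordinates of the deposited table. The deposited fold changes, p-values and Gene Ontology tables are comparisons of the authors and were not used.

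Counts were tested in R 4.3.3 with edgeR 4.0.16 (TMM, filterByExpr with minimum count 10 and minimum total 15, two-sided quasi-likelihood test, Benjamini-Hochberg at 0.05) without covariates. This kept 14246 genes with 99.9% of the reads, at a biological coefficient of variation of 5.82%. For the relative test, library sizes were set to the summed counts of the replication list. Shares and ratios of single genes were compared by exact permutation. Pairs of libraries within a group differed by more than sampling noise , with a chi-square of 2.56 to 8.91 per degree of freedom, and none were merged. Scripts were tested on simulated counts.

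The members and lists were chosen with earlier results of these data known. Named genes are the members, partner genes past the threshold with at least a 1.5-fold change, 7 proliferation genes, up to 4 silenced genes with the most reads in induced cells, and the 5 nearest profiles of Dnmt1 and Uhrf1. Usp7, Fen1, Orc1, Gins2, Chaf1a, Ehmt1, Ehmt2, Cxxc4, Dppa3, Nanog and Ddx4 were added after their values were seen. Apart from Trim28, the de novo partners are named only to show what that role held. Alternatives were DESeq2 1.42.0, median-ratio factors, library totals, no filter at all, a filter at a mean of 10 reads and 1 CPM in at least 3 libraries, a replicate block, limma 3.58.1 on log2(FPKM + 1) or on log2(FPKM + 0.1), other reference lists, and leaving out each library. Alternatives for the shares of Dnmt1, Tet2 and Tet3 were added after the data were seen.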

Additional observations from a re-analysis of the deposited data

How the results depend on the processing

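Of 344 values under the alternatives, 314 kept their direction and their side of the threshold or, for counts, medians and shares without a test, stayed near the main value. The number of members called higher went from 3 to 2 or 4 and that called lower from 3 to 2. For Dnmt1, Uhrf1, Dnmt3a and Mbd2 every fold change against control kept its direction and call. The number of genes called ran from 8439 (DESeq2) to 9765 (no filter), and from 8514 to 9348 when 1 library was left out. Where no cause is named below, the cause was not tested.

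With limma on log2(FPKM + 1), a scale that shrinks low genes, Tet1 was at -0.10 and no longer past the threshold (adjusted p 0.0774) and Tet3 at 0.19, with medians of -0.89 for replication, -1.66 for mitosis and -0.18 for partner genes. On log2(FPKM + 0.1), Tet3 was at 0.22 and the replication median at -1.06. With library totals the replication and partner medians were -1.15 and -0.25. Leaving out 1 library gave 0.10 to 0.34 for Tet2, 0.17 to 0.32 for Tet3, -1.18 to -1.05 for the replication median and -0.22 to -0.19 for the partner median. Relative to the replication list, the mitosis reference turned Dnmt1 to 0.71, Uhrf1 to 0.050 and Tet1 to 1.02. The median ratio put Tet1 at 0.14, and single libraries left out put it between -0.20 and 0.13. Against Pcna, Dnmt3b was at 0.28 and Dnmt3l at 0.30, both no longer past the threshold, and Dnmt3b ranged from 0.44 to 0.83 without single libraries. From counts in place of FPKM, the Dnmt3a share changed by 1.14 and the Dnmt1 share by -28.3 percentage points. The Tet2 share changed by -1.08 to 1.53 points without single libraries.

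Control and induced samples with the same number did not deviate together (correlations -0.09, -0.06 and 0.08), and control 1 correlated best with induced 2, so the numbers were not taken as a pairing. With a replicate block 9063 genes were called, and no call of a member changed. Dnmt3b and Tet1, with 76 to 152 reads per group, are limited by depth.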
